A study of Homo sapiens with 12 samples.

Results

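The experiment described here compared A549 cells that received a FAM60A siRNA with A549 cells that received a non-targeting siRNA, and it covers 6 of the 12 samples of the series. Its members were taken by sample title: 3 FAM60A knockdown samples and the 3 non-targeting controls that carry the FAM60A name. The other 6 samples are an SDS3 knockdown with 3 non-targeting controls of its own, so the experiments share no array. A549 is an established human lung adenocarcinoma line with epithelial features. Cells were plated in 6-well plates in F-12K medium with serum and transfected 1 day later with siRNA at 50 nM and Dharmafect 1, and RNA was extracted 3 days after transfection. Both groups carried the transfection reagent and an siRNA, and untransfected cells were not analysed here. The labels name 1 FAM60A siRNA and 1 non-targeting siRNA, so effects of the FAM60A transcript's loss and of that siRNA's sequence cannot be told apart, and the siRNA sequences were not used here. The labels say that wells were plated in triplicate but not that the triplicates were separate experiments, so the spread behind the p-values may be partly or wholly technical.

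FAM60A, now named SINHCAF, is a subunit of the SIN3-HDAC complex. This complex has no DNA-binding domain of its own. The SIN3 scaffold is brought to promoters by transcription factors such as the MXD partners of MAX, KLF family members and E2F4-linked repressors, and its histone deacetylases remove acetyl groups from nearby histones. SIN3 complexes are known both for repressing genes and for occupying active promoters.

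Each sample was hybridised to an Affymetrix expression array read in 1 colour. Of its 54675 probe sets, 41097 carry a single gene symbol, and the brightest one of each gene gave 19775 genes, of which 18611 reached a log2 intensity of 5 on at least 3 of the 6 arrays and were tested. Every change below is the log2 intensity of the knockdown minus that of the control (n = 3 in each group), with the standard error (SE) of the limma fit and a p-value adjusted over all 18611 genes, and a gene "rose" or "fell" where the adjusted p was under 0.05. Array medians lay between 186.01 and 192.56 on the linear scale, and arrays correlated at 0.9978 to 0.9986 within a group and at 0.9866 to 0.988 between groups over probe sets. No pair of arrays held identical values, and no array stood apart from its group. The 18S ribosomal RNA control probe sets were 0.28 higher in the knockdown (log2 12.93, 12.92 and 13.05 in the controls, 13.29, 13.18 and 13.26 in the knockdown), with an exact permutation p of 0.1, the smallest that 3 against 3 allows. The 3′ minus 5′ difference of the ACTB control probe sets, a sign of RNA integrity, was 0.07 to 0.112 in the controls and -0.024 to 0.022 in the knockdown (exact permutation p = 0.1). The part of these values in the results was not tested. Epithelial keratins KRT7, KRT8 and KRT18 had control means of 14.41, 14.54 and 15.05. The median level of the 8 epithelial markers was 10.39, against 7.54 for 8 fibroblast markers, 8.04 for 8 endothelial markers and 7.11 for the 6 leukocyte markers measured. Leukocyte genes that A549 cells should lack therefore still read above the floor of 5, and that floor does not separate expressed from silent genes.

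The FAM60A transcript was reduced to 15.5% of its control level. SINHCAF read 11.99, 11.97 and 12.01 on the control arrays and 9.36, 9.12 and 9.43 on the knockdown arrays, so the groups lay far apart. It fell by 2.69 (SE 0.0778, adjusted p = 7.6e-09), and a second SINHCAF probe set fell by 2.54.

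Among the other subunits of the complex, the transcripts of the scaffold SIN3A, the deacetylases HDAC1 and HDAC2 and the bridging subunit SUDS3 (SDS3) did not pass the test, with changes of 0.15, -0.10, -0.21 and 0.04. Dimmer probe sets of SIN3A and HDAC2 did rise, by 0.25 and 0.214 (limma adjusted p = 0.00661 and 0.0144 over all probe sets). The second scaffold, SIN3B, did rise. SIN3B read 8.51, 8.70 and 8.69 in the controls and 9.52, 9.58 and 9.63 in the knockdown, a change of 0.94 (SE 0.0676, adjusted p = 1.9e-06). PHF12, a reader protein of the SIN3B form of the complex, rose by 0.44, and SAP30L, a paralogue of the SAP30 bridging subunit, rose by 0.43. The metastasis suppressor subunit BRMS1 fell by 0.32 and the SIN3-binding forkhead factor FOXK1 fell by 0.33, although FOXK1 did not pass when all of its probe sets were averaged (-0.12, adjusted p = 0.078). The DNA demethylase TET1, a partner of SIN3A, fell by 0.70 on its brightest probe set while its other one rose by 0.41. Over the 25 measured subunits and partners, 6 rose (24%) and 5 fell (20%), SINHCAF included, with a median change of 0.003. Over all genes tested, 19% rose and 17.6% fell. Of 31 other deacetylases and co-repressor subunits, 7 rose and 7 fell (22.6% each). The lysine demethylase KDM1A (0.71) and the deacetylase HDAC5 (0.48) were among those that rose, and the NuRD subunit GATAD2A (-0.52) among those that fell. Counts this small moved with the setting, over all alternatives run from 3 to 7 rises among the SIN3 genes and from 2 to 7 among the other co-repressors.

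Knockdown of FAM60A changed a large share of the measured transcripts by small amounts. Of 18611 genes, 6816 (36.6%) passed the test, 3535 higher (19%) and 3281 lower (17.6%), with the median over all tested genes at -0.0238 and the middle 50% between -0.136 and 0.117. Most of these changes were modest: 75.4% of the rises and 85.7% of the falls were smaller than 1.5-fold. A change of at least 2-fold was reached by 222 genes that rose (1.19% of those tested) and by 104 that fell (0.559%), and a 4-fold change by 13 and 9. For 8933 genes (48%) the values of the groups did not overlap. Arrays scaled on their hybridisation spike-ins gave 3497 rises and 1708 falls. Arrays scaled on the poly-A spike-ins added to the RNA gave 1469 rises and 2333 falls, so these counts changed with the scaling. The spike-in means overlapped between the groups (knockdown minus control -0.059 and 0.089, exact permutation p = 0.4 and 0.5). Scaled on both kinds together, called spike-in scaling below, SINHCAF had an SE of 0.115, as did the named genes that lost their call there. Those p-values therefore carry array scatter shared by all genes, not the spread of each gene alone.

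**Figure D1:**
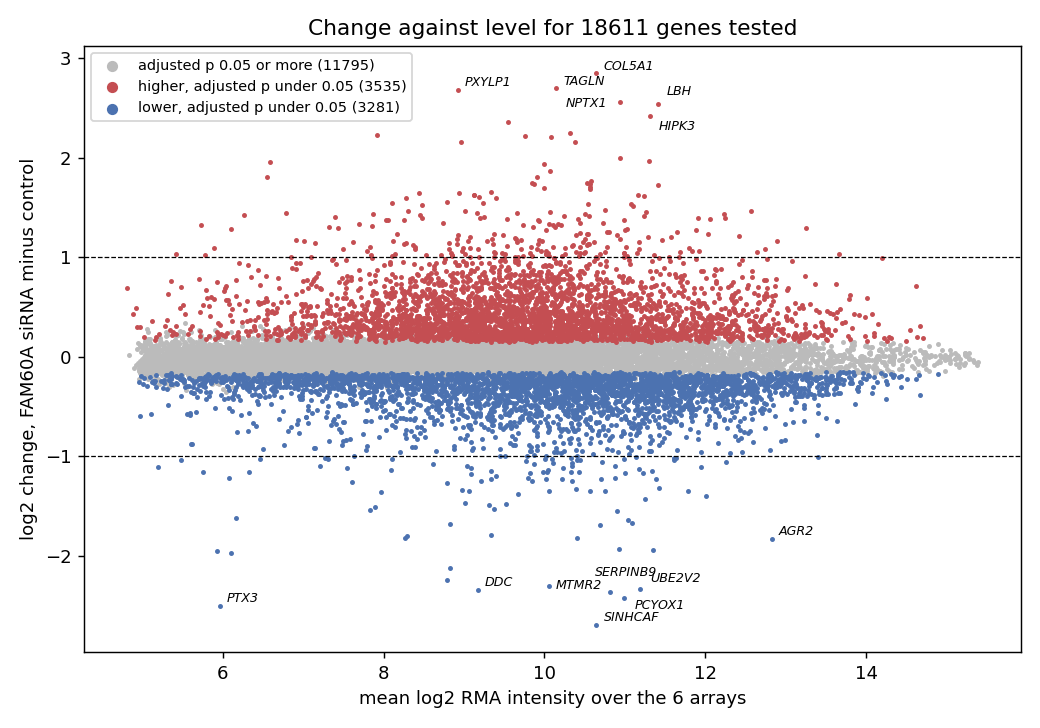
Log2 change (FAM60A siRNA minus control, vertical axis) against the mean log2 intensity over the 6 arrays (horizontal axis) for each of 18611 genes. Red points are the 3535 genes that rose, blue points the 3281 that fell, grey points those that did not pass, and dashed lines mark a 2-fold change.

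The response was found mainly among protein-coding genes at middle and high intensity. Of 15851 protein-coding genes, 21.1% rose and 18.9% fell, against 6.3% and 9.86% of 2222 long non-coding RNAs. In the dimmest of 4 equal classes of genes, with mean levels up to 7.31, 4.88% rose and 8.94% fell. In the next to brightest class, between 8.78 and 10.47, 32.1% rose and 21% fell, and in the brightest class 24.2% rose and 29.6% fell. RMA values near the background compress a change.

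The genes named next were ranked only among passing genes whose groups did not overlap. Of these, the 12 largest rises lay between 2.15 and 2.84. COL5A1, a chain of the collagen that nucleates collagen fibres, read 9.24, 9.30 and 9.12 in the controls and 12.06, 12.03 and 12.10 in the knockdown, the largest rise among the probe sets read for each gene (2.84, SE 0.0626, adjusted p = 3.45e-09). TAGLN, an actin-binding protein of smooth muscle and stromal cells, read 8.68, 8.91 and 8.79 against 11.42, 11.48 and 11.57, a 6.48-fold rise. PXYLP1, a phosphatase that acts on the xylose linking glycosaminoglycan chains to their core protein, read 7.42, 7.55 and 7.77 against 10.19, 10.28 and 10.32 (2.68). On the probe sets read, the control and knockdown arrays of all 3 genes lay far apart. A dimmer probe set of PXYLP1 did not pass (0.068, limma adjusted p = 0.49 over all probe sets). The remaining 9 of the 12 largest rises lay between 2.15 and 2.56. They were NPTX1, a secreted pentraxin of synapses (2.56), LBH, a transcriptional cofactor linked to WNT signalling (2.54), the kinase HIPK3 (2.42), the synaptic vesicle protein SYNGR3 (2.35), the tetraspan membrane protein EMP2 (2.25), SYNC, an intermediate filament partner in muscle (2.23), SLC22A4, a transporter of ergothioneine (2.21), the fatty acid elongase ELOVL7 (2.20) and ACKR3, a scavenging receptor for CXCL12 (2.15).

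Among genes ranked the same way, the largest fall after that of SINHCAF itself was of PTX3. PTX3, a secreted pentraxin of inflammation, read 7.10, 7.38 and 7.16 in the controls and 4.67, 4.80 and 4.67 in the knockdown. Since all 3 knockdown arrays lay under the level floor, the fall is at least 4.64-fold when the floor is used in their place. PCYOX1, an enzyme that breaks down prenylated cysteines, read 12.17, 12.25 and 12.17 against 9.51, 9.82 and 10.01 (-2.42, SE 0.106, adjusted p = 7.01e-08). The granzyme B inhibitor SERPINB9 read 11.99, 12.04 and 11.95 against 9.68, 9.65 and 9.57 (-2.36). The control and knockdown arrays of these genes were widely separated, and the second probe set of PCYOX1 and both others of SERPINB9 also fell. UBE2V2, the catalytically inactive partner of the ubiquitin-conjugating enzyme UBE2N, read 12.41, 12.30 and 12.34 against 9.98, 10.11 and 9.97 (-2.33, SE 0.062, adjusted p = 4.19e-09), and both of its other probe sets fell too. DDC, the decarboxylase that makes dopamine and serotonin, fell by 2.34, and the phosphoinositide phosphatase MTMR2 fell by 2.296. The water and glycerol channel AQP3 fell by 2.24 on its brightest probe set, with smaller changes of -0.266 and -0.435 on its other ones. The apoptosis inhibitor FAIM fell by 2.12. The ErbB4 ligand NRG4 fell by 1.96, the natural killer receptor gene KLRC3 by at least 3.75-fold, and IMP3, a protein of the U3 ribonucleoprotein that processes ribosomal RNA, by 1.94.

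**Figure D2:**
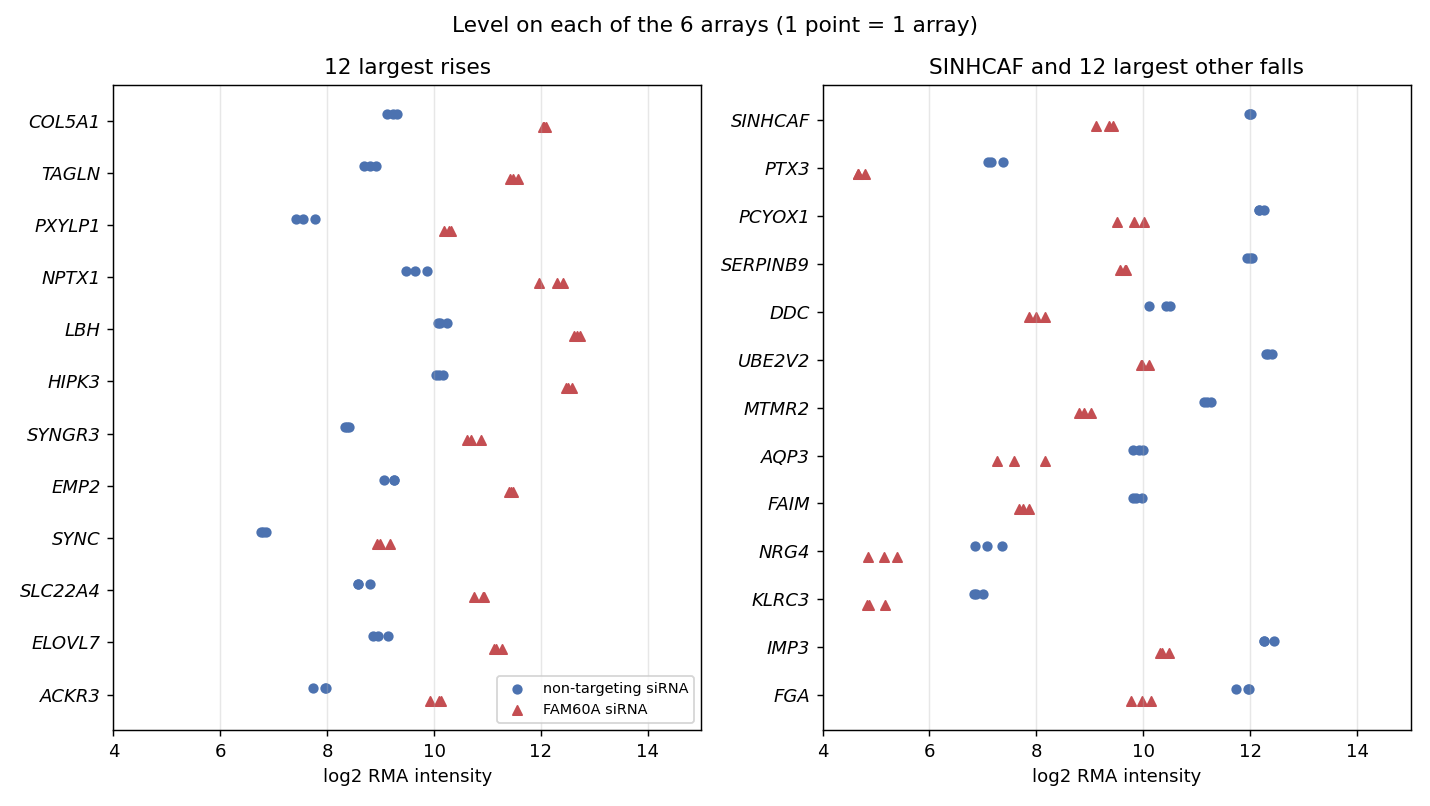
Log2 RMA intensity (horizontal axis) on each array for the 12 genes with the largest rise (left) and for SINHCAF with the next 12 largest falls (right). Circles are the 3 non-targeting controls and triangles the 3 FAM60A siRNA samples. Genes were ranked only among those that passed and whose groups do not overlap, so the gap between groups follows from that choice.

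For some genes the result depended on which probe set was read. Of the 211 genes changed at least 2-fold that have another probe set above the floor, 157 had another one pass in the same direction and 9 had one pass in the opposite direction. NID1, a basement membrane linker chosen here after its values were seen, rose by 0.94 on its brightest probe set (7.20, 7.97 and 7.66 in the controls, 8.63, 8.43 and 8.59 in the knockdown). A dimmer NID1 probe set read 6.21, 5.80 and 6.14 against 9.35, 9.47 and 9.14, a rise of 3.27, and the last, at 7.94, 8.16 and 7.97 against 7.95, 7.82 and 7.94, did not pass (-0.12). COL1A1, also chosen after its values were seen, did not pass on its brightest probe set (0.14, adjusted p = 0.1), while 3 of its 4 others rose, by 2.10, 2.05 and 1.42. TAGLN rose on both probe sets with shared sequence (2.69 or more on each) but not on its remaining one (-0.08), and MYL9, FN1, TLN1 and LTBP3, described below, rose on such probe sets but did not pass on the brightest unshared one. FN1 has another unshared probe set, near the floor at 4.99, 4.78 and 5.21 against 5.28, 5.57 and 5.71, that rose by 0.53 (adjusted p = 0.00853 over all probe sets). A probe set other than the one read passed in the opposite direction for HDAC2, TET1, MLXIP, CCND2, TP53INP1, BOK, NDC1, AGO3 and TEAD1, each described with that limit. Of these, HDAC2 did not pass on the probe set read.

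**Figure D3:**
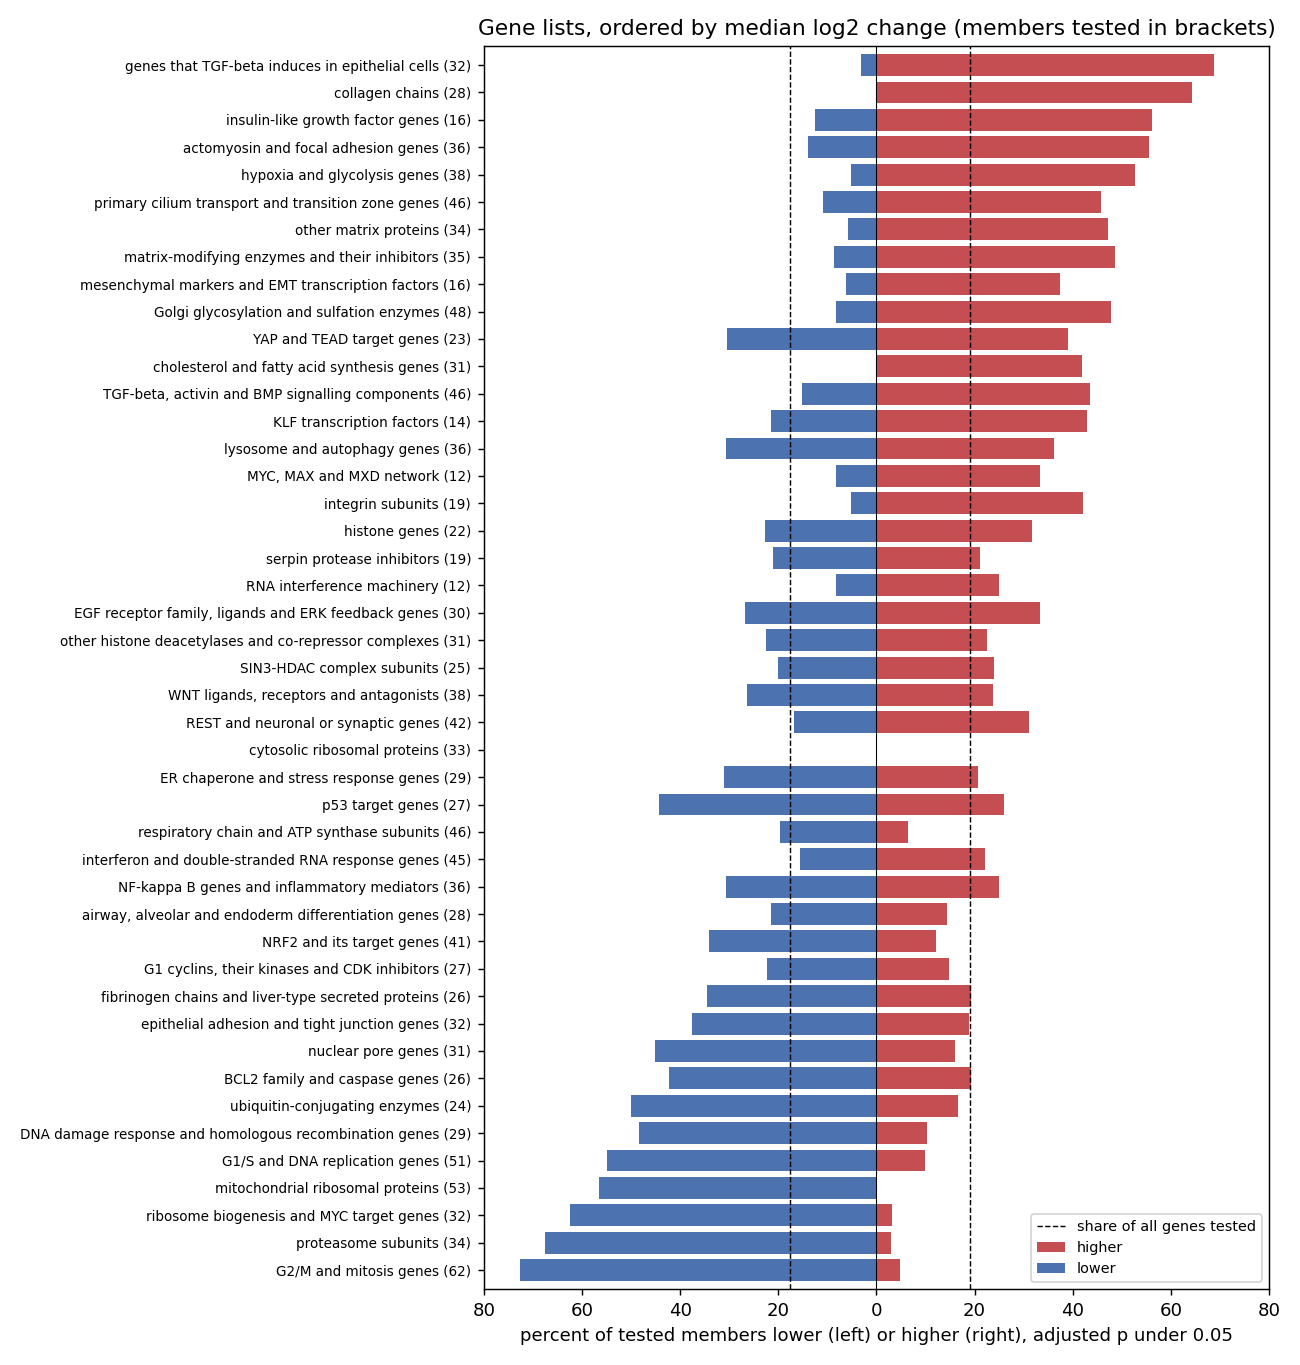
Percent of the tested members of each of 45 gene lists that rose (right, red) or fell (left, blue), with lists ordered by their median change and the number of tested members in brackets. Dashed lines mark the shares over all genes tested, 19% higher and 17.6% lower.

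Extracellular matrix genes rose more often than they fell. Of 28 collagen chains measured, 18 rose and none fell (limma, 0 also at an unadjusted p under 0.05), with a median change of 0.47, against -0.0238 for all tested genes, of which 19% rose. Beside COL5A1, the basement membrane chains COL4A4 (8.30, 7.85 and 8.21 against 9.87, 9.80 and 9.63) and COL4A2 (11.50, 11.51 and 11.54 against 12.98, 12.91 and 12.95) rose by 1.65 and 1.43. Both genes had every knockdown array more than 1 log2 unit above every control, and both were picked as large passing rises of the list. The 10 collagen chains that did not pass had changes between -0.08 and 0.18. Of 34 other matrix proteins 16 rose (47.1%) and 2 fell (5.88%), against 19% and 17.6% of all genes. The testican proteoglycan SPOCK1 rose by 1.74, the collagen-binding protein SPARC by 1.68 and the microfibril protein FBN1 by 1.39. The 2 that fell were the matricellular CCN proteins CCN1 (12.61, 12.61 and 12.67 against 11.95, 12.05 and 11.75, -0.71) and CCN2 (11.28, 11.19 and 11.23 against 10.71, 10.80 and 10.54, -0.55). Among 35 enzymes that modify matrix and their inhibitors, 17 rose (48.6%) and 3 fell (8.57%). The collagen prolyl hydroxylase subunit P4HA3 rose by 1.75, the lysyl oxidase LOXL2 by 1.30 and the gelatinase MMP2 by 1.09. In contrast P4HA1, a paralogue of P4HA3, fell by 1.09 and the protease ADAMTS1 by 0.42. Dimmer probe sets of MMP2 (0.007 and -0.11) and of ADAMTS1 (-0.107) did not pass. P4HA1 read 11.55, 11.32 and 11.41 in the controls and 10.44, 10.19 and 10.37 in the knockdown, so the hydroxylase subunits moved in opposite directions.

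The TGF-beta pathway carries signals from latent extracellular ligands through receptor kinases to SMAD transcription factors, and many matrix genes are among its targets. Of 46 ligands, latency proteins, receptors and SMADs, 20 rose (43.5%) and 7 fell (15.2%), against 19% and 17.6% of all genes. With poly-A scaling 12 rose. The ligand TGFB2 read 9.73, 9.63 and 9.76 against 11.41, 11.48 and 11.36 (1.71, SE 0.0606, adjusted p = 1.91e-08). The kinase receptor TGFBR1 read 10.63, 10.43 and 10.52 against 12.08, 11.98 and 11.75 (1.42), and the latent binding protein LTBP3 rose by 1.42. Ligand and receptor were both higher on every knockdown array than on any control. They were picked as large passing rises, and the groups of 48% of all genes did not overlap. The falls were led by other receptors. The BMP receptor BMPR1B (10.73, 10.58 and 10.61 against 9.51, 9.49 and 9.73) changed by -1.06. The activin receptor ACVR2B and the co-receptor TGFBR3 each changed by -0.46. Dimmer probe sets of ACVR2B did not pass (-0.013 and -0.091). Of 32 genes known as TGF-beta targets in epithelial cells, 22 rose (68.8%) and 1, CCN2, fell (3.12%). Their median of 0.57 was the highest of the lists. Genes that this list shares with the counts above include COL5A1, COL4A2, LTBP3, LOXL2, MMP2 and CCN2, and it shares TAGLN with the actomyosin count below. The cytokine IL11 read 9.72, 9.88 and 9.38 against 11.35, 11.46 and 11.40 (1.75), and the inhibitory SMAD7, chosen after its values were seen, rose by 0.55.

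Integrins and the contractile cytoskeleton followed the matrix in part. Of 19 integrin subunits 8 rose (42.1%) and 1 fell (5.26%), against 19% and 17.6% of all genes. With poly-A scaling 5 rose. The collagen receptor subunit ITGA11 (8.40, 8.30 and 8.32 against 9.26, 9.53 and 9.29) rose by 1.02. The laminin receptor subunits ITGB4 and ITGA3 rose by 0.86 and 0.79, and ITGA6, the partner of ITGB4, fell by 0.45. The other ITGA6 probe set did not pass (-0.073, limma adjusted p = 0.591 over all probe sets). Of 36 actomyosin and focal adhesion genes 20 rose (55.6%) and 5 fell (13.9%), and the rises numbered 9 with poly-A scaling. After TAGLN, the integrin-binding TLN1 (9.78, 9.46 and 9.84 against 11.47, 11.48 and 11.41) rose by 1.76 and the myosin light chain MYL9 (7.50, 7.85 and 7.53 against 9.11, 9.35 and 9.34) by 1.64. The muscle ankyrin-repeat protein ANKRD1, a gene that both SRF-type and YAP-type lists hold, fell by 0.51. It was dim, at 6.19, 6.23 and 6.05 against 5.78, 5.58 and 5.58, under the median of 7.11 of the leukocyte markers. Among 8 muscle markers 2 rose (25%), 2 fell (25%) and 4 did not pass. The SRF co-activator MYOCD (8.48, 8.53 and 8.51 against 10.11, 10.12 and 10.24) rose by 1.65 and the smooth muscle protein SMTN by 0.83, while the myosin MYH11 (-0.25) and the smooth muscle actin ACTA2 (-0.19) fell, calls that were lost with spike-in scaling (adjusted p = 0.067 and 0.163). The summed linear level of the 8 markers was 4370 to 4700 in the controls and 5450 to 5580 in the knockdown. Summed fibroblast markers ranged from 1540 to 1650 in the controls and from 1470 to 1650 in the knockdown. Of these 8 markers the collagen COL3A1 (0.26) and the surface protein THY1 (0.26) rose, calls that were lost with spike-in scaling (adjusted p = 0.156 and 0.158), and the proteoglycan LUM fell by 0.60. The part of these cell types in the results was not tested. Of 23 YAP and TEAD targets 9 rose (39.1%) and 7 fell (30.4%), with a median of 0.14. The rises were led by TGFB2 (1.71), the TEAD factor TEAD1 (0.86, with -0.47 on another probe set) and the forkhead factor FOXF2 (0.61). The LIM protein AJUBA (12.87, 12.76 and 12.85 against 11.99, 12.04 and 11.93) fell by 0.83, and CCN1, CCN2 and ANKRD1 were among the other falls.

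**Figure D4:**
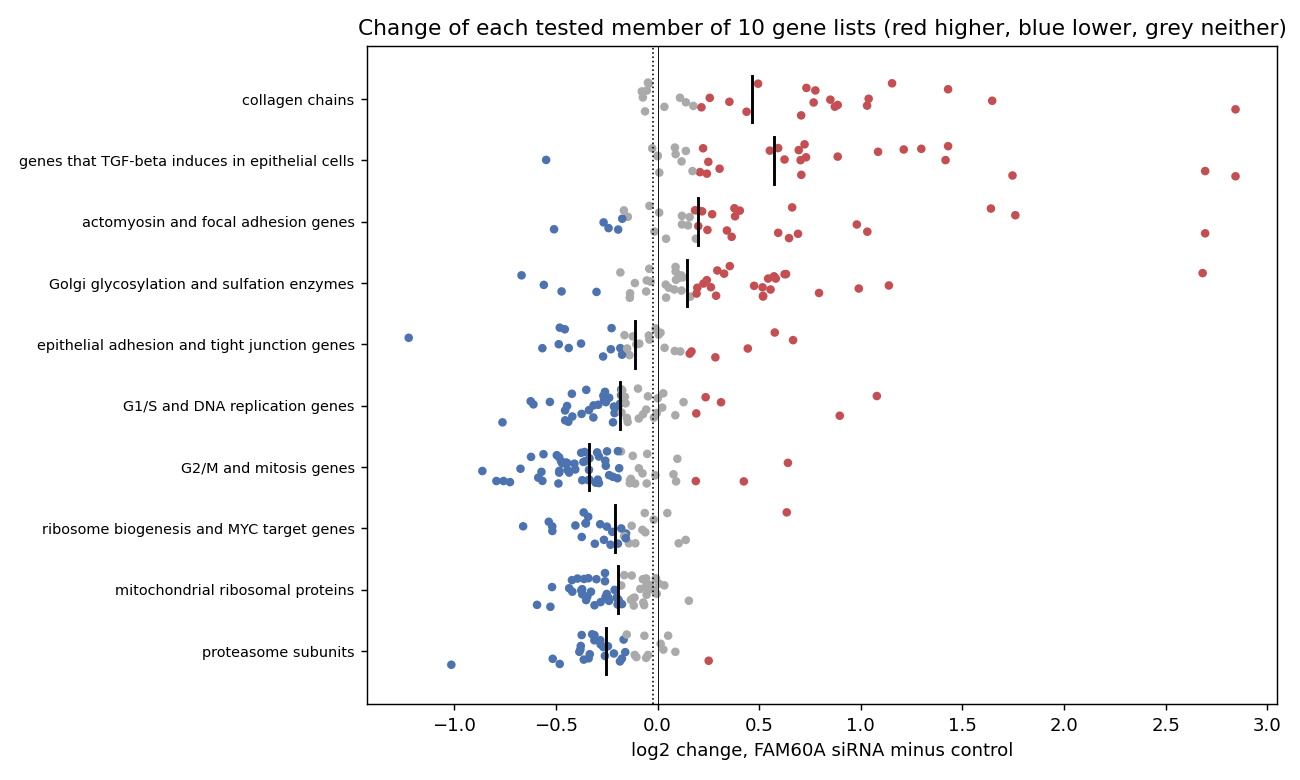
Log2 change of each tested member of 10 gene lists (1 point per gene, red higher, blue lower, grey not passing), with the median of each list as a black bar and the median of all tested genes as a dotted line. The 28 collagen chains and 32 TGF-beta targets spread to the right up to 2.84, and the 62 G2/M genes lie mostly between -0.86 and 0.

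Epithelial identity genes changed in both directions. Of the 8 epithelial markers 2 rose (25%), 2 fell (25%) and 4 did not pass. Control and knockdown means were 14.41 and 14.68 for KRT7 and 10.22 and 10.72 for KRT19. EPCAM and CDH1, described next, were the 2 that fell. The summed linear level of the 8 markers was 81900 to 85700 in the controls and 81700 to 85600 in the knockdown, with keratins the brightest. Of 32 adhesion and tight junction genes 6 rose (18.8%) and 12 fell (37.5%), against 19% and 17.6% of all genes, with a median of -0.11. The falls numbered 7 with hybridisation spike-in scaling. The adhesion molecule EPCAM read 9.84, 9.94 and 10.05 in the controls and 8.70, 8.74 and 8.72 in the knockdown (-1.22, SE 0.0633, adjusted p = 2.11e-07), the desmosomal cadherin DSC2 fell by 0.57, and E-cadherin, CDH1, fell by 0.49 on its brightest probe set (-0.24 and adjusted p = 0.0926 with its probe sets averaged). The desmosomal plaque protein DSP (means of 11.40 ± 0.0963 and 12.06 ± 0.0832, SD) rose by 0.67, the claudin CLDN2 by 0.58 and the plakophilin PKP3 by 0.44. Of 16 mesenchymal markers and factors of epithelial-mesenchymal transition 6 rose (2 to 7 over the alternatives run) and 1 fell. Fibronectin, FN1, rose by 0.62 and the receptor kinase AXL by 0.49, the transcription factor SNAI1 fell by 0.34, and vimentin, VIM, which was chosen after its values were seen, did not pass (0.09).

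Secretory and liver-type products of A549 cells included several strong falls. AGR2, a disulfide isomerase of secretory epithelium, read 13.78, 13.71 and 13.72 against 11.89, 11.73 and 12.11 (-1.83). The fibrinogen chain genes FGA (11.98, 11.73 and 11.95 against 9.97, 9.77 and 10.14), FGG and FGB fell by 1.93, 1.25 and 0.99, and so the 3 chains of this clotting protein moved together. Over the whole lists the balance was smaller, and 19% of all genes rose and 17.6% fell. Of 28 airway, alveolar and endoderm genes 4 rose (14.3%) and 6 fell (21.4%), close to those shares. Of 26 liver-type secreted proteins 5 rose (19.2%) and 9 fell (34.6%), of which 5 falls passed at an adjusted p under 0.01. The endoderm factor FOXA3 fell by 0.78, while LPCAT1, an enzyme of surfactant lipid (10.93, 10.83 and 10.78 against 11.68, 11.82 and 11.94), rose by 0.97 and the factor SOX4 by 0.53. Of 19 serpins 4 rose and 4 fell (21.1% each, close to the shares of all genes). SERPINB9 was the largest fall, and SERPINA3, an acute-phase inhibitor, and the protease inhibitor SERPINE2 rose by 0.65 and 0.77.

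Of 38 WNT pathway genes 9 rose (23.7%) and 10 fell (26.3%), against 19% and 17.6% of all genes. The ubiquitin ligase RNF43, which removes frizzled receptors (9.23, 9.13 and 9.09 against 7.99, 7.93 and 8.31), fell by 1.08. The receptor FZD5 (10.94, 10.82 and 10.87 against 9.79, 9.81 and 9.84) fell by 1.06, with -0.202 on a dimmer probe set. The receptor FZD2 rose by 0.83 and the antagonist family member DKK3 by 0.91. Of 30 EGF receptor and ERK pathway genes 10 rose (33.3%) and 8 fell (26.7%), but the falls were 4 without control replicate 1, 5 without control replicate 3 and 3 with hybridisation spike-in scaling. EGFR itself rose by 0.78 on its brightest probe set (10.67, 10.63 and 10.64 against 11.44, 11.48 and 11.34), and 3 of its 8 others also rose. The ERK phosphatases split: DUSP5 (11.94, 11.66 and 11.92 against 13.27, 13.31 and 13.32) rose by 1.46 and DUSP4 by 0.81, whereas DUSP6 fell by 0.61, with the ligand EREG (-0.64) and the ERK-induced factor ETV4 (-0.59). Of 16 insulin-like growth factor genes 9 rose (56.2%) and 2 fell (12.5%), with 5 rises under poly-A scaling. The binding proteins IGFBP1 (8.02, 8.01 and 8.17 against 9.56, 9.36 and 9.31) and IGFBP7 rose by 1.34 and 1.16 and the adaptor IRS1 by 1.23, and the RNA-binding protein IGF2BP1 (11.53, 11.43 and 11.49 against 10.30, 10.21 and 10.29) fell by 1.22.

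Cell cycle genes fell in large numbers and by small amounts, and in bulk RNA fewer cells in a phase and less RNA per cell cannot be told apart. Of 62 G2/M and mitosis genes 45 fell and 3 rose, with a median of -0.34, the lowest of the lists, against 17.6% falling among all genes. The hyaluronan receptor and spindle protein HMMR read 11.83, 11.74 and 11.67 against 10.96, 10.85 and 10.83 (-0.86, SE 0.0638, adjusted p = 2.33e-06). The mitotic kinase CDK1 read 12.77, 12.67 and 12.84 against 11.95, 11.98 and 11.97 (-0.79), and the spindle checkpoint protein MAD2L1 read 11.91, 11.81 and 11.99 against 11.32, 11.25 and 10.85 (-0.76). In each, the highest knockdown array was below the lowest control. These genes were picked as the list's largest passing falls, and the groups of 48% of all genes did not overlap. The 2 largest of the 3 rises were the midzone protein PRC1 (0.64) and the kinesin KIF11 (0.42). Of 51 G1/S and DNA replication genes 28 fell (54.9%) and 5 rose (9.8%), though the falls numbered 15 with hybridisation spike-in scaling. The replication factor GINS1 (12.90, 13.01 and 12.82 against 12.08, 12.17 and 12.19) fell by 0.76, the helicase subunit MCM2 by 0.62 and the primase subunit PRIM2 by 0.61. The polymerase subunit POLD3 (9.20, 9.10 and 9.21 against 10.23, 10.19 and 10.33) rose by 1.08 and the maintenance methyltransferase DNMT1 by 0.90. Of 29 DNA damage response genes 14 fell and 3 rose (6 fell with hybridisation spike-in scaling), with RAD51AP1 at -0.79, the checkpoint kinase CHEK1 at -0.66, the exonuclease EXO1 at -0.56 and the ubiquitin ligase FANCL at 0.29, a call lost with spike-in scaling (0.26, adjusted p = 0.0911). Of 27 G1 cyclins, their kinases and inhibitors 6 fell (22.2%) and 4 rose (14.8%), against 17.6% and 19% of all genes. Over the alternatives run the falls numbered 3 to 10 and the rises 0 to 5. The repressor E2F7 fell by 0.74, and the inhibitor CDKN1A rose by 0.24, a call lost with spike-in scaling (0.21, adjusted p = 0.192). The cyclin CCND2 rose by 0.27 on its brightest probe set, while its other passing ones fell by 0.30 and 0.41. CCND1, chosen after its values were seen, did not pass (-0.17, adjusted p = 0.0593), but its dimmer probe set fell by 0.446 (limma adjusted p = 0.000904 over all probe sets).

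Promoters of the mitotic genes are known to carry CCAAT boxes and a cell cycle homology element (CHR), and those of replication genes E2F sites. Below are the 150 bases upstream of the RefSeq start (GRCh38.p14, 5′ to 3′ on the gene's strand) for the 4 G2/M and the 2 G1/S genes with the largest falls, shown to let the motif letters be seen beside those falls. Capitals mark any match, on either strand, to CCAAT (NF-Y), TTTGAA (CHR), CACGTG (MYC and MAX), GGAATG (TEAD), CAGACA (SMAD), TGACTCA (AP-1), TTGGCGC or TTCCCGC (E2F).
HMMR (chr5:163460482-163460631, plus strand): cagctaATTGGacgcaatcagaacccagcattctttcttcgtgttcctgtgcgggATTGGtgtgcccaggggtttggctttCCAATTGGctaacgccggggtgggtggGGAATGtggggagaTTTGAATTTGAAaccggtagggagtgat
CDK1 (chr10:60778181-60778330, plus strand): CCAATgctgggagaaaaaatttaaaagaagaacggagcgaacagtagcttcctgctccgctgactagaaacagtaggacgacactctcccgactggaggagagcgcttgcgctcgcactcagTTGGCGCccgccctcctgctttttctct
MAD2L1 (chr4:120066849-120066998, minus strand): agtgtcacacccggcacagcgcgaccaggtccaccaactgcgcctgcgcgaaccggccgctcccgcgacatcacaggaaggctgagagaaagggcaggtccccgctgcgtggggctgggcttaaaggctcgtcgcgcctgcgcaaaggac
KIF4A (chrX:70289954-70290103, plus strand): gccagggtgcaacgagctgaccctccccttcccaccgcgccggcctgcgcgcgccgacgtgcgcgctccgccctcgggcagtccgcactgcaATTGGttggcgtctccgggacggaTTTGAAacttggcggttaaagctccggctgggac
GINS1 (chr20:25407523-25407672, plus strand): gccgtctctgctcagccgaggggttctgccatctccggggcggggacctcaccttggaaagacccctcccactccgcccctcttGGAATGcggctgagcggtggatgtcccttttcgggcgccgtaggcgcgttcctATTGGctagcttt
MCM2 (chr3:127598261-127598410, plus strand): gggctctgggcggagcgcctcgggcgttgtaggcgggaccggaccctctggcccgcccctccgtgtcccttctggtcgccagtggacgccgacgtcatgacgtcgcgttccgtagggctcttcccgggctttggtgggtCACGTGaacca
HMMR held 7 matches, among them an overlapping CCAAT pair and 2 adjoining TTTGAA that each read as 1 run of capitals, CDK1, KIF4A and GINS1 held 2 each, MCM2 held 1 and MAD2L1 none. In a window from 250 bases before to 50 after the start, CCAAT was present in 76.9% and TTTGAA in 74.4% of the 39 fallen G2/M genes with a RefSeq window, against 36% and 11.5% of the 14539 tested genes with one. The 15 G2/M genes with a window that did not fall held each of them in 60%. An E2F motif was present in 61.5% of 26 fallen G1/S genes, in 68.4% of 19 that did not fall and in 12.5% of all tested. CACGTG was found in 35.3% of 17 fallen ribosome biogenesis genes, 44.4% of 9 that did not fall and 9.02% of all. The 169 windows of genes that rose at least 2-fold had a median GC content of 70.3%, against 63.3% for all, and held CCAAT in 21.9%.

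Genes of protein synthesis and breakdown fell beside the cell cycle genes. Of 32 ribosome biogenesis and MYC target genes 20 fell (62.5%) and 1 rose (3.12%), against 17.6% and 19% of all genes. The median was -0.21, and 11 fell with hybridisation spike-in scaling. The pre-ribosome factors RRP15 (10.62, 10.67 and 10.70 against 10.10, 9.97 and 9.93), BYSL and NOP58 fell by 0.66, 0.54 and 0.52, while POLR1A, the large subunit of RNA polymerase I, rose by 0.64. MYC itself, chosen after its values were seen, rose by 0.21, a call that was lost with spike-in scaling (0.18, adjusted p = 0.296). None of 33 cytosolic ribosomal proteins passed limma's test in either direction, and 0 did so at an unadjusted p under 0.05. Of 53 mitochondrial ribosomal proteins 30 fell and none rose (16 fell with hybridisation spike-in scaling, and 1 was higher at limma's unadjusted p under 0.05), with MRPL13, MRPL11 and MRPL19 at -0.59, -0.53 and -0.52, of which MRPL19 did not pass with its probe sets averaged (-0.21, adjusted p = 0.11). Of 46 respiratory chain subunits 9 fell (19.6%, close to the 17.6% of all genes) and 3 rose (6.52%). Without knockdown replicate 3 the falls numbered 5, and with hybridisation spike-in scaling 2. NDUFA5 of complex I (10.29, 9.90 and 10.28 against 11.40, 11.18 and 10.88) rose by 1.00 while SDHD of complex II fell by 0.38.

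Of 34 proteasome subunits 23 fell (67.6%) and 1 rose (2.94%), against 17.6% and 19% of all genes. The median was -0.25, and 13 fell with hybridisation spike-in scaling. The immunoproteasome subunit PSMB9 had a mean of 10.84 ± 0.2 (SD) in the controls and 9.83 ± 0.0963 in the knockdown (-1.02). The subunits PSMD12 and PSMA3 fell by 0.52 and 0.48, and the activator PSME1 rose by 0.25, a call lost with spike-in scaling (0.22, adjusted p = 0.168). Of 24 ubiquitin-conjugating enzymes 12 fell (50%) and 4 rose (16.7%), with 7 falls under hybridisation spike-in scaling. After UBE2V2, UBE2R2 (12.53, 12.44 and 12.45 against 11.79, 11.79 and 11.74) fell by 0.71, and UBE2H rose by 0.76. Of 31 nuclear pore genes 14 fell (45.2%) and 5 rose (16.1%), with 9 falls under hybridisation spike-in scaling. NUP58 (10.77, 10.68 and 10.71 against 9.81, 9.77 and 9.74), NUP54 and NUP37 fell by 0.95, 0.71 and 0.70 and NUP210 rose by 0.52, although NUP58 did not pass with its probe sets averaged (-0.18, adjusted p = 0.064). The pore membrane protein NDC1 rose by 0.85 on its brightest probe set and fell by 0.315 on its other one.

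Stress and survival pathways moved in mixed directions. Of 27 p53 targets 12 fell (44.4%) and 7 rose (25.9%), against 17.6% and 19% of all genes. The p53 ubiquitin ligase MDM2 (11.79, 11.84 and 11.76 against 10.89, 10.90 and 10.74) fell by 0.95, the metabolic stress gene SESN2 by 0.70 and TRIAP1 by 0.63. The rises were led by the autophagy-linked TP53INP1 (0.71, with another probe set at -0.19), the sestrin SESN1 (0.285) and CDKN1A (0.24). They numbered 1 with spike-in or poly-A scaling, and 4 without control replicate 1 or without any 1 of the knockdown replicates. Of 26 BCL2 family and caspase genes 11 fell (42.3%) and 5 rose (19.2%), with 7 falls under hybridisation spike-in scaling. The pro-apoptotic BCL2L11 (9.46, 9.45 and 9.26 against 10.63, 10.65 and 10.70) rose by 1.27 and the caspase activator DIABLO fell by 0.59. BOK, a BCL2 relative, rose by 1.33 on its brightest probe set, which has shared sequence, and fell by 0.225 on its other one. Of 29 endoplasmic reticulum stress genes 9 fell (31%) and 6 rose (20.7%, close to the share of all genes). Over the alternatives run 6 to 10 of these genes fell and 1 to 7 rose. Among them were the asparagine synthetase ASNS (means of 12.08 ± 0.0757 and 10.77 ± 0.127, -1.31), the stress factor XBP1 (-0.64) and the lipoprotein receptor VLDLR (1.00). A549 cells are known to carry inactive KEAP1 and hence active NRF2, the factor of antioxidant genes. Of 41 NRF2 targets 14 fell (34.1%) and 5 rose (12.2%), with 8 falls under hybridisation spike-in scaling. The glutathione synthesis subunit GCLC (13.12, 13.01 and 13.17 against 12.46, 12.39 and 12.31) fell by 0.71, OSGIN1 by 0.70 and the sulfiredoxin SRXN1 by 0.62, and the haem oxygenase HMOX1 (11.83, 12.18 and 11.85 against 12.93, 12.84 and 12.88) rose by 0.93.

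Metabolic and organelle lists had more rises. Of 38 hypoxia and glycolysis genes 20 rose (52.6%) and 2 fell (5.26%), against 19% and 17.6% of all genes. With poly-A scaling 13 rose. The enolase ENO2 (10.60, 10.46 and 10.33 against 11.60, 11.53 and 11.56) rose by 1.10, the glycolytic regulator PFKFB4 by 0.86 and the glucose transporter SLC2A1 by 0.82, while the transporter SLC2A3 (10.53, 10.33 and 10.34 against 9.30, 9.24 and 9.01) fell by 1.22. Of 31 cholesterol and fatty acid synthesis genes 13 rose (41.9%) and none fell, although 1 was lower at limma's unadjusted p under 0.05. With poly-A scaling 3 rose. MSMO1, STARD4 and FASN led these rises at 0.75, 0.69 and 0.56. Of 48 Golgi glycosylation and sulfation enzymes 23 rose (47.9%) and 4 fell (8.33%), with 14 rises under poly-A scaling. After PXYLP1, the chondroitin polymerising factor CHPF (8.37, 7.97 and 8.38 against 9.35, 9.37 and 9.42) rose by 1.14 and the sulfotransferase CHST7 by 0.99, and GCNT2, which branches lactosamine chains, fell by 0.67. Of 36 lysosome and autophagy genes 13 rose (36.1%) and 11 fell (30.6%). The falls were 7 without control replicate 1 or without knockdown replicate 2, and 3 with hybridisation spike-in scaling. The rises were 7 with poly-A scaling. The list had the protease CTSH (1.36), the cholesterol exporter NPC1 (1.23) and the autophagy kinase ULK1 (0.95) higher and the protease CTSC lower (-0.66). Of 46 primary cilium genes 21 rose (45.7%) and 5 fell (10.9%). The rises numbered 6 with poly-A scaling and 13 with probe sets averaged. BBS12 (7.29, 7.28 and 7.28 against 8.27, 8.42 and 8.46) rose by 1.10, RPGRIP1L of the transition zone by 1.06 (but -0.09, adjusted p = 0.341, on its unshared probe set) and the kinesin adaptor KIFAP3 by 0.72, and the transport protein IFT74 fell by 0.53.

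Of 36 NF-kappa B genes and mediators 9 rose (25%) and 11 fell (30.6%), against 19% and 17.6% of all genes, with 7 falls left without control replicate 2 or without knockdown replicate 2 and 5 rises with poly-A scaling. Beside PTX3, the cyclooxygenase PTGS2 (11.84, 11.55 and 11.96 against 10.87, 10.74 and 10.91) fell by 0.94 and the chemokine CXCL5 by 0.86, while the superoxide dismutase SOD2 rose by 0.95, the complement protein C3 by 0.80 and the chemokine CXCL8 by 0.66. Of 45 interferon and double-stranded RNA response genes 10 rose (22.2%) and 7 fell (15.6%), close to the shares of all genes (4 rose with spike-in scaling). The double-stranded RNA sensor TLR3 (6.35, 6.40 and 6.23 against 5.23, 5.12 and 5.18) fell by 1.15, the exonuclease ISG20 by 0.93 and the ISG15 protease USP18 by 0.52, and the STAT partner IRF9, the membrane protein IFITM3 and the ubiquitin-like ISG15 rose by 0.72, 0.50 and 0.46. Both groups had received an siRNA. Of 12 genes of the RNA interference machinery 3 rose (25%) and 1 fell (8.33%). The argonaute AGO4 (7.38, 7.29 and 7.44 against 8.77, 8.82 and 8.65) was higher by 1.38 and its partner TNRC6A by 1.04. Other probe sets of AGO4 rose by less, 0.429 and 0.277. The fall was that of AGO3 (-0.37), of which 2 other probe sets rose, by 0.30 and 0.23.

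Neuronal, histone and SIN3 recruiter genes closed the lists. Of 42 REST targets and neuronal genes 13 rose (31%) and 7 fell (16.7%), against 19% and 17.6% of all genes, and 8 rose with poly-A scaling. Beside NPTX1 and SYNGR3 among the rises and DDC among the falls, the neurofilament NEFL (10.27, 10.21 and 10.19 against 8.48, 8.49 and 8.33) fell by 1.79. Other NEFL probe sets gave -0.238 and -0.166, and the latter did not pass (limma adjusted p = 0.0616 over all probe sets). Of 22 histone genes 7 rose (31.8%) and 5 fell (22.7%). The linker histone H1-2 (0.86), H2BC21 (0.78) and H4C8 (0.71) were higher and the centromeric variant CENPA lower (-0.41). Of 14 KLF factors 6 rose (42.9%) and 3 fell (21.4%), with 3 to 7 rises and 1 to 4 falls over the alternatives run. KLF7 (8.76, 8.77 and 8.75 against 10.23, 9.84 and 9.90) rose by 1.23, KLF6 by 0.54, and KLF4 (10.61, 10.66 and 10.62 against 9.77, 9.73 and 9.53) fell by 0.96. Among 12 genes of the MYC, MAX and MXD network 4 rose (33.3%) and 1 fell (8.33%). The SIN3-binding repressor MXD1 changed by -0.53 and its relative MXI1 by 0.45. The MLX partner MLXIP rose by 0.47 and on 2 of its 3 other probe sets, and fell by 0.33 on the last.

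The response was set beside that to SDS3 siRNA to find where it differs. The difference of the changes, FAM60A minus SDS3, was tested for each gene over all 12 arrays, and 4672 genes (25.1%) passed, 2839 with the FAM60A change above the SDS3 change and 1833 below. Of the 326 genes changed at least 2-fold after FAM60A knockdown, 268 had a passing SDS3 change in the same direction and 11 in the opposite direction. The share of all genes with a passing SDS3 change was not set beside these counts. The test of the difference was passed by 232 of the 326, and by 3026 of the 6816 genes that passed after FAM60A knockdown. These genes were chosen on their FAM60A change, which enters the difference, so the counts are descriptions. FAM60A siRNA changed SUDS3 by 0.04 where SDS3 siRNA changed it by -1.58, and SDS3 siRNA changed SINHCAF by 0.35.

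Several of the strongest falls were larger after FAM60A knockdown than after SDS3 knockdown. PCYOX1 changed by -2.42 against 0.14 (difference -2.56, SE 0.138), UBE2V2 by -2.33 against -0.34 and MTMR2 by -2.30 against -0.60. RP2, an activator of the GTPase activity of ARL3, read 9.83, 9.55 and 9.84 against 8.40, 8.52 and 8.25 after FAM60A knockdown (-1.35) and changed by 0.40 after SDS3 knockdown. In the other direction the serotonin receptor HTR2B changed by -0.39 against -2.88, the tetraspan TM4SF20 by 0.48 against -1.86, the acyl-CoA synthetase SLC27A2 by 1.35 against -0.93, IGFBP1 by 1.34 against -0.90, the CCN protein CCN5 by 1.26 against -0.64 and the iron-responsive aconitase ACO1 by 0.63 against -1.18. The difference passed the test in each of these genes, although ACO1's rise was not found on its unshared probe set (0.24, adjusted p = 0.0719).

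**Figure D5:**
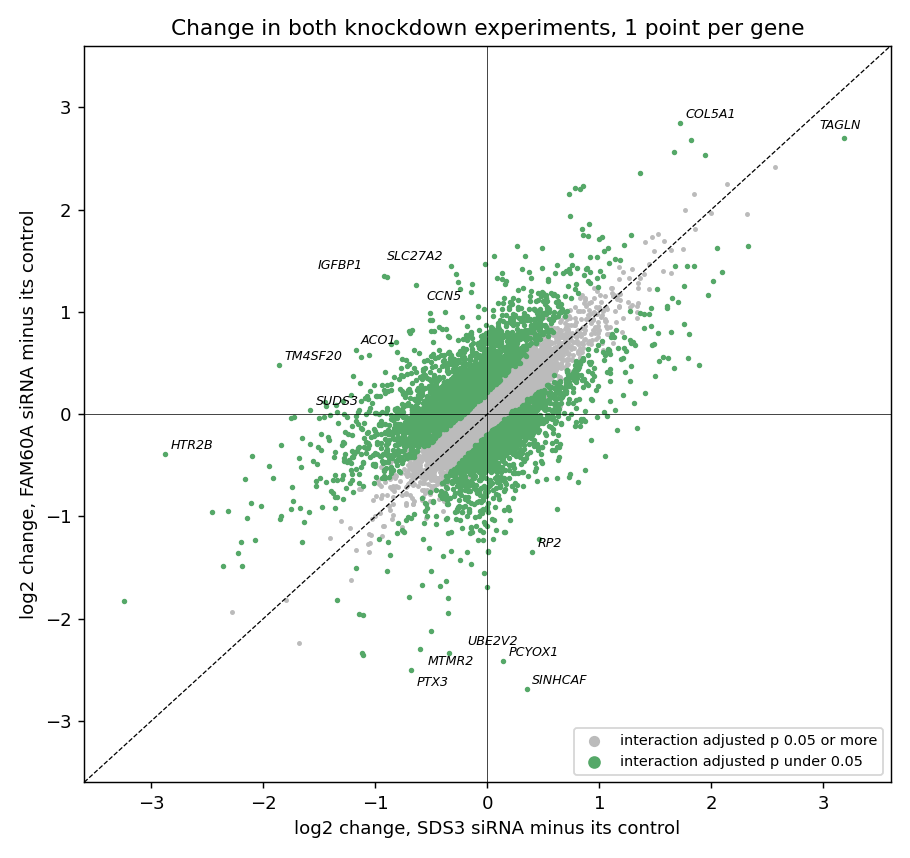
Log2 change after FAM60A siRNA (vertical axis) against that after SDS3 siRNA (horizontal axis), each minus its own controls, for 18611 genes. Green points are the 4672 genes whose changes differ at an adjusted p under 0.05, the dashed line marks equal change, and SINHCAF lies at -2.69 against 0.35.

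Over all 18611 genes, 2839 had a FAM60A change above the SDS3 change and 1833 below. Among the lists, cilium genes often differed in one direction: 23 of 46 were above and 1 below, with medians of 0.16 (FAM60A) and -0.07 (SDS3). Of 41 NRF2 targets 19 were above and 1 below, and the medians of -0.08 and -0.31 are both under 0. Of 31 cholesterol genes 11 were above and 1 below, and of 28 collagen chains 12 were above and 2 below. Of 62 G2/M genes 20 were below and 4 above (medians -0.34 and -0.18), and of 31 nuclear pore genes 12 were below and 2 above. CCN2 fell by 0.55 after FAM60A knockdown and changed by 0.87 after SDS3 knockdown, and of 23 YAP targets 11 were below and 5 above.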

How the data were processed

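The authors deposited, per the labels and the value table, 1 intensity per probe set and sample on a linear scale, made with RMA per the submitters' processing notes, whose version and settings are not given in the sources used here. RMA gives arrays a common distribution, so a shift shared by most transcripts is removed. Log2 of the deposited intensity was taken, symbols came from the platform annotation (41043 probe sets updated through RefSeq), and each gene was read on its brightest probe set, by the mean of the 6 arrays. Genes at or above a log2 level of 5 on at least 3 arrays entered the test, made with limma 3.58.1 in R 4.3.3 (lmFit, eBayes, two-sided, Benjamini-Hochberg adjustment, threshold 0.05). The fit was tested on simulated data. Arrays with the same replicate number did not deviate together (r = -0.07, -0.12 and -0.08), so numbers were not used as pairs. Precision rests on 3 arrays a group. Members and gene lists were chosen with earlier results of these data known, so list counts are descriptions. Genes named in the text were drawn from SINHCAF, the 12 largest non-overlapping rises and falls, up to 3 largest passing rises and falls of each list and the 6 largest differences from SDS3 in each direction. Another 12 genes (BRMS1, SIN3A, HDAC1, HDAC2, SUDS3, NID1, COL1A1, SMAD7, VIM, KIF4A, CCND1 and MYC) were chosen after their values were seen. Alternatives covered filters, probe set choice, scaling, fits, the replicate block and leaving out each array. The spike-in scalings on hybridisation or poly-A controls alone were added after the data were seen. Promoter windows came from RefSeq (GRCh38.p14), which matched 14539 of the 18611 genes.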

Additional observations from a re-analysis of the deposited data

Results flagged for a closer look

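Some genes passed in opposite directions in the FAM60A and SDS3 experiments, and their difference passed the limma test over 12 arrays. The FAM60A change minus the SDS3 change was -3.04 for SINHCAF, the transcript targeted in 1 of the experiments, and -1.75 for RP2, the GTPase-activating protein of ARL3. It was 2.35 (2.345) for the tetraspan TM4SF20, 2.27 for the acyl-CoA synthetase SLC27A2, 2.24 for the binding protein IGFBP1, 1.90 (1.895) for CCN5 and 1.81 for the aconitase ACO1.

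A signal also lay outside the genes compared. Of 13522 probe sets without a single gene symbol, 10884 reached the level floor and 1349 (12.4%) passed, and 46 were at least 2-fold higher in the knockdown and 23 at least 2-fold lower. The 18S ribosomal RNA control probe sets were higher in the knockdown by 0.277, with an exact permutation p of 0.1.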

How the results depend on the processing

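Of 212 genes named, 183 kept their direction and their side of the threshold under every alternative in which they were tested. Another 3 gained the call under at least 1 alternative, 19 lost it and 8 reversed, with CCND2 among both of the last. The filter at log2 7 tested 208 of the 212, and the choice without shared-sequence probe sets tested 209. Without shared-sequence probe sets 6 reversed, as the brightest unshared one gave -0.118 for NID1, -0.085 for TAGLN, -0.057 for MYL9, -0.019 for FN1, -0.086 for RPGRIP1L and -0.225 for BOK. Another unshared probe set of NID1 rose by 3.27 and one of FN1 by 0.53. With probe sets averaged CCND2 gave -0.109 and AGO3 0.073. Averaging all probe sets of a gene left 113 genes at least 2-fold higher and 58 at least 2-fold lower. Spike-in scaling gave 2102 rises and 2162 falls, scaling on the hybridisation controls alone 1708 falls, scaling on the poly-A controls alone 1469 rises, and an adjusted p under 0.01 left 2126 falls. With the replicate block 3252 genes rose and 2945 fell, and among the genes named the block changed only the call of THY1 (0.256, adjusted p = 0.0507). Leaving out 1 array at a time gave 3018 to 3482 rises, 2611 to 3197 falls and a SINHCAF change of -2.75 to -2.60. The difference from SDS3 passed for 3511 to 4867 genes. Counts of rises moved by over 1.5 times with poly-A scaling in several lists and counts of falls with hybridisation scaling, and the cause was not tested. Signal near background limits what dim genes can show.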
